A study of Mus musculus with 6 samples.

Results

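HSP90 is an abundant cytosolic chaperone that folds and holds client proteins such as steroid receptors, protein kinases and PIWI proteins, and co-chaperones steer each step of its ATP-driven cycle. The 10 genes described here, of 55353 genes in each library, encode both cytosolic HSP90 proteins (Hsp90aa1 and Hsp90ab1) and 8 co-chaperones (Stip1, Fkbp4, Fkbp5, Fkbp6, Ahsa1, Ptges3, Cdc37 and Unc45a). They were chosen by symbol, with the control-mutant results of these same libraries already known. The differences of the members between groups are therefore given as a description, and nothing is supported with them.

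Each library came from the whole testis of mice taken at postnatal day 14, and 3 were control and 3 Rnu11 cKO, called mutants here. Rnu11 is the gene of U11, an RNA with which the minor spliceosome recognises the 5′ end of its rare introns. The labels give the controls' genotype only as control, and neither the driver of the deletion nor the cells it reached. Levels are in TPM, a read share scaled by transcript length and by library total. TPM holds no depth, so no counting interval can be given.

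HSP90 works as a dimer that opens and closes with ATP. HOP (Stip1) hands it clients from HSP70, AHA1 (Ahsa1) speeds ATP hydrolysis, p23 (Ptges3) holds the closed state, and CDC37 loads kinases. The immunophilins FKBP52 (Fkbp4) and FKBP51 (Fkbp5) sit in steroid receptor complexes, FKBP6 is a germ cell protein of meiotic chromosomes and of the piRNA pathway, and UNC45A helps fold myosin. In the testis HSP90AA1 is known for a role in germ cells, and mice without it have infertile males.

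The members together took 0.126% to 0.137% of all TPM in each library, and between 30113 and 34510 genes were above 0. Rnu11 itself read 614, 576 and 550.3 TPM in controls 1, 2 and 3, and 196, 393 and 203 TPM in mutants 1, 2 and 3, so every mutant was below every control. Summed markers of leptotene and zygotene spermatocytes (12 genes, none at 0 in all libraries) were 409 to 496 TPM in controls and 288 to 368 TPM in mutants. Summed Sertoli markers (12 genes, none at 0) were 1671 to 1845 TPM in controls and 2278 to 2863 TPM in mutants. Control 2 stood apart from the other controls in pachytene markers, at 77.6 TPM against 156 and 149 TPM in controls 1 and 3 and 76.0 to 91.9 TPM in mutants. In whole tissue, fewer cells of a type and less RNA per cell cannot be told apart.

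Since the deleted RNA serves minor introns, the 5′ ends of member introns were read where an annotated transcript that retains the intron spells them out. Of 136 member introns of at least 60 nt, 14 could be read (10.3%, against 5.97% of 250419 introns of all genes). All 14 start with GT and end with AG. None starts with GTATCCTT or ATATCCTT, the 5′ splice sites of minor introns (searched on the transcribed strand), exactly or with up to 1 mismatch; the closest differ at 4 of 8 positions. Among 14946 readable introns of all genes, 0.401% matched exactly and 0.803% with up to 1 mismatch. The other member introns were not read, so nothing is said of them. The first 20 bases of 1 intron from each of the genes with the largest differences and from Hsp90ab1 show what such a start looks like, with the 8 bases set against the minor site in capitals (GRCm38, minus strand, read from GENCODE M21 transcripts). They lie at chr7:80339351-80339550, chr12:110695419-110695518 and chr17:45569127-45569239, in that order.
Unc45a: GTGAGGGGatcgggttgctc
Hsp90aa1: GTGAGTATaccacttggagg
Hsp90ab1: GTATGTCGgagattgggtct

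Hsp90aa1 (ENSMUSG00000021270.13, GRCm38 chromosome 12, 110690605 to 110702728, minus strand, protein-coding) had the most negative difference of the 10 members. It encodes the inducible form of cytosolic HSP90. Its gene level was 581, 477 and 621 TPM in controls 1, 2 and 3, and 422, 458 and 505 TPM in mutants 1, 2 and 3. Controls 1 and 3 were above all mutants, while control 2 lay among them. The control mean was 559.9 ± 74.7 TPM and the mutant mean 462 ± 42.0 TPM (SD, n = 3 each), a difference of −0.27 (SE 0.14) on the log2(TPM + 1) scale used for all differences here. With 1 library left out, the difference ran from −0.38 (without control 2) to −0.19 (without control 3).

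Hsp90ab1 (ENSMUSG00000023944.14, chromosome 17, 45567775 to 45573271, minus strand) encodes the constitutive form. Its level was 309.8, 407 and 352 TPM in controls and 407, 459.6 and 359 TPM in mutants. The groups overlapped, and the highest library was mutant 2. The control and mutant means were 356 ± 48.9 and 409 ± 50.3 TPM (SD, n = 3 each; log2 difference 0.20, SE 0.15), the opposite direction from Hsp90aa1. The size of the difference depends on single libraries: it was 0.30 without control 2, 0.10 without control 1 and 0.11 without mutant 2.

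**Figure D1:**
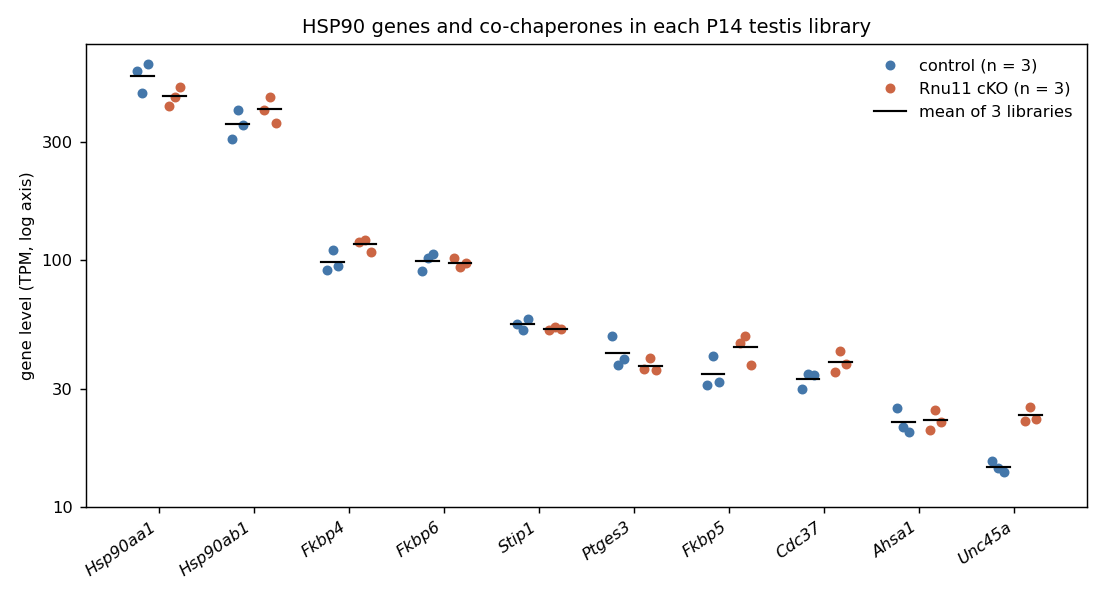
Gene level in TPM (log axis) of the 10 members, with 1 point per library, controls on the left and mutants on the right of each gene and black lines at the means of 3 libraries. Levels run from about 14 TPM for Unc45a in controls to 621 TPM for Hsp90aa1 in control 3, and the groups are apart only for Unc45a and Cdc37.

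A gene's TPM sums all its isoforms, and short annotated fragments weigh as much as full-length messages. For Hsp90aa1, isoforms annotated with a complete coding sequence made up 43.4% ± 3.29 of the gene's TPM in controls and 39.3% ± 2.72 in mutants (SD, n = 3 each). Most of the remainder came from a pair of short isoforms annotated as retained introns. The control and mutant means of Hsp90aa1-204 (325 nt, 96.0% of its bases within exons of the main coding isoform Hsp90aa1-201) were 175 ± 24.6 and 142 ± 14.1 TPM. Those of Hsp90aa1-205 (487 nt, 89.5% within those exons) were 129.7 ± 39.3 and 129 ± 22.4 TPM (SD, n = 3 each). With each isoform weighted by its length, which approximates its share of the gene's reads, complete coding isoforms held 84.7% ± 1.90 in controls and 82.1% ± 1.68 in mutants. This comparison and the coding-only levels below were chosen after the data had been seen. Coding-only levels also rest on how reads were assigned among isoforms that share exons, which cannot be checked from TPM.

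Counted over complete coding isoforms only, Hsp90aa1 read 247, 225 and 253 TPM in controls 1, 2 and 3, and 179, 171 and 192 TPM in mutants 1, 2 and 3. Every mutant was below every control, control 2 included. The share of all genes for which this holds on the coding-only scale is not given here. Means were 241 ± 15.02 TPM and 181 ± 10.53 TPM (SD, n = 3 each; log2 difference −0.42, SE 0.12). The main coding isoform Hsp90aa1-201 and the second one, Hsp90aa1-202, had differences of −0.40 and −0.45, each with every mutant below every control. Hsp90aa1-205 had a difference of 0.02, with a wide SE of 0.24. Its share of the gene was not called (limma, adjusted p = 0.86), so unequal differences between the isoforms are not shown.

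Coding-only Hsp90ab1 read 260.5, 321 and 279 TPM in controls and 342, 370.3 and 303 TPM in mutants, with means of 287 ± 31.0 TPM and 338 ± 33.9 TPM (SD, n = 3 each; log2 difference 0.24, SE 0.15). Here the groups overlapped through control 2. The sum of both HSP90 genes over coding isoforms averaged 528 ± 19.5 TPM over controls and 519 ± 23.4 TPM over mutants (SD, n = 3 each), and the groups overlapped. The ratio of Hsp90aa1 to Hsp90ab1 over coding isoforms was 0.947, 0.699 and 0.907 in controls and 0.524, 0.463 and 0.634 in mutants. All mutant ratios were below all control ratios. With gene totals the ratio was 1.88, 1.17 and 1.77 in controls and 1.04, 0.996 and 1.41 in mutants, where control 2 lay below mutant 3. Such ratios do not depend on how a library is scaled, and no test was made of them. The coding ratio does depend on how reads were assigned among the isoforms.

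**Figure D2:**
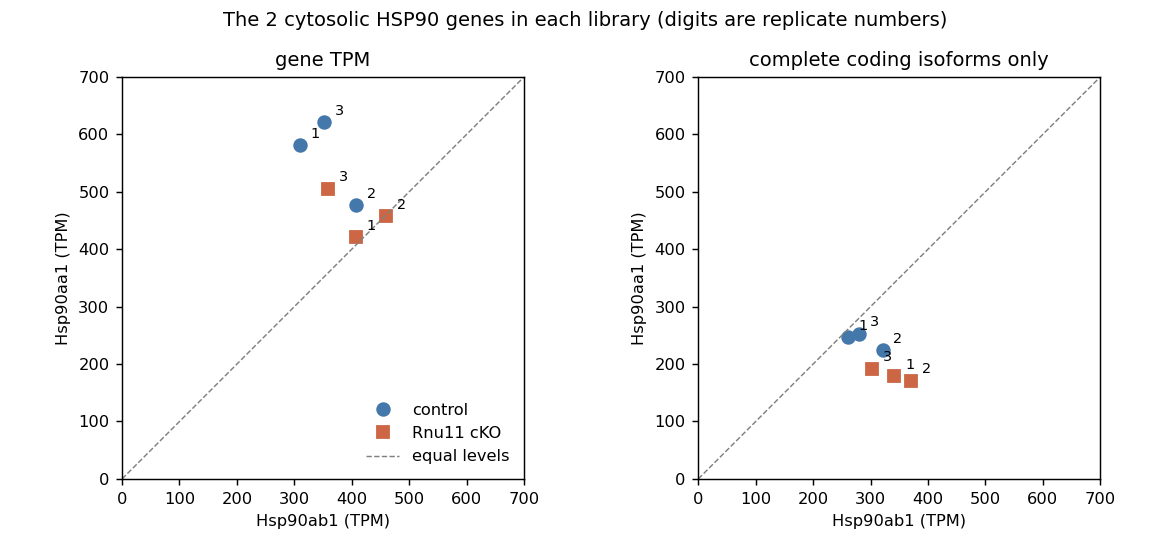
Hsp90aa1 against Hsp90ab1 in TPM, with 1 point per library and the dashed line at equal levels, from gene totals (left) and from complete coding isoforms (right). With gene totals 5 of 6 libraries lie above the line, and with coding isoforms all 6 lie below it and the mutants lie farthest from it.

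The level of coding Hsp90aa1 was also set against summed spermatocyte markers, a comparison added after the data had been seen. As a percentage of the leptotene and zygotene markers it was 49.7, 54.9 and 51.0 in controls and 56.2, 59.6 and 52.3 in mutants, and the groups overlapped. Against pachytene markers it was 159%, 289% and 170.3% in controls and 235%, 212% and 209% in mutants. The groups overlapped here too, with control 2 the highest library. Hsp90ab1 coding isoforms were 16.5% ± 0.95 of the summed Sertoli markers in controls and 13.2% ± 0.30 in mutants (SD, n = 3 each), with every mutant below every control. The Sertoli sum used as divisor was itself higher in every mutant than in every control. In TPM, coding Hsp90ab1 had the higher mean in mutants (287 TPM in controls and 338 TPM in mutants). Nothing is therefore read from the order of these percentages. Clu, a secreted chaperone, made up 849 of 1731 TPM of the Sertoli sum in controls. The part of cell composition in these results was not tested.

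Unc45a (ENSMUSG00000030533.15, chromosome 7, 80325292 to 80341005, minus strand) had the most positive difference of the members. It encodes the general form of the UNC45 myosin chaperone, which binds HSP90 through its TPR domain. Its level was 15.4, 14.4 and 13.9 TPM in controls 1, 2 and 3, and 22.4, 25.5 and 22.8 TPM in mutants 1, 2 and 3. Every mutant was above every control, and the gap between the groups was wider than the range within either. Means were 14.5 ± 0.77 TPM and 23.5 ± 1.70 TPM (SD, n = 3 each; log2 difference 0.66, SE 0.09). Leaving out any 1 library left the difference between 0.60 and 0.70.

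The main Unc45a isoform, Unc45a-201 (3260 nt, 20 exons), read 4.91, 6.43 and 5.15 TPM in controls and 9.66, 11.3 and 9.40 TPM in mutants. Its groups did not overlap either (log2 difference 0.78, SE 0.13). A fragment with an incomplete coding sequence, Unc45a-203 (350 nt), averaged 3.74 ± 1.80 TPM over controls and 6.66 ± 1.32 TPM over mutants (SD, n = 3 each), and its groups overlapped. Between 1.48 and 2.86 TPM of Unc45a in each library belonged to no isoform matched to the annotation. Against summed Sertoli markers, Unc45a was 0.92%, 0.78% and 0.83% in controls and 0.88%, 0.89% and 1.00% in mutants, which overlapped. Summed Sertoli markers were themselves higher in mutants, and their part in the Unc45a level was not tested.

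Stip1 (chromosome 19, 7020702 to 7039967) encodes HOP, the adaptor that binds HSP70 and HSP90 at once. It read 55.1, 52.3 and 57.5 TPM in controls and 51.9, 53.5 and 52.5 TPM in mutants. This was the narrowest spread of the members relative to level in mutants (52.6 ± 0.83 TPM, against 55.0 ± 2.58 TPM in controls, SD, n = 3 each), and the groups overlapped (log2 difference −0.06, SE 0.08). All of its TPM came from 1 coding isoform.

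The immunophilins of steroid receptor complexes both had higher means in mutants. Fkbp4 (chromosome 6, 128429735 to 128438677), which aids receptor transport, read 91.4, 110.4 and 94.3 TPM in controls and 119, 121 and 108 TPM in mutants. Mutant 3 fell between controls 3 and 2, so the groups overlapped (98.7 ± 10.2 TPM and 116 ± 6.94 TPM, SD, n = 3 each; log2 difference 0.23, SE 0.11). Fkbp5 (chromosome 17, 28399094 to 28517527), a target and a brake of glucocorticoid receptor signalling, read 31.1, 40.9 and 32.02 TPM in controls and 46.3, 49.4 and 37.7 TPM in mutants. Control 2 lay above mutant 3 (34.7 ± 5.40 TPM and 44.5 ± 6.06 TPM, SD, n = 3 each; log2 difference 0.35, SE 0.15). Without control 2 the differences of Fkbp4 and Fkbp5 were 0.32 and 0.47. The groups of both were then apart by construction, as control 2 was the only control above mutant 3. Other omissions made the differences smaller, down to 0.18 for Fkbp4 (without control 1) and 0.27 for Fkbp5 (without mutant 2).

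Relative to Fkbp5, Fkbp4 stood at 2.86 ± 0.14 in controls and 2.63 ± 0.21 in mutants (SD, n = 3 each), and the ratios overlapped. As a percentage of summed Sertoli markers, Fkbp5 was 1.85, 2.22 and 1.92 in controls and 1.83, 1.73 and 1.66 in mutants. On that scale every mutant lay below every control, the opposite order from the TPM means. The summed Sertoli markers it is divided by were themselves higher in mutants. Fkbp5 overlaps Gm22146, a gene for a small RNA on the other strand that read 1.22 to 2.23 TPM per library.

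Fkbp6 (chromosome 5, 135291704 to 135350044) is the germ cell member. It read 90.4, 102 and 106 TPM in controls and 102, 93.7 and 97.3 TPM in mutants, with all of its TPM in 4 complete coding isoforms. The groups overlapped, and the means were 99.5 ± 8.03 TPM and 97.6 ± 3.98 TPM (SD, n = 3 each; log2 difference −0.03, SE 0.10). Its 2 main isoforms, Fkbp6-202 (50.2 ± 4.94 and 47.1 ± 7.17 TPM in the control and mutant means) and Fkbp6-201 (38.1 ± 3.02 TPM and 38.6 ± 3.94 TPM, SD, n = 3 each), kept similar means. The sign of the gene's difference changed in 2 of 14 other settings, so no direction is given.

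Genes listed as partners of FKBP6 in the PIWI pathway had lower means in mutants. Of 18 such genes, all 18 had a negative difference (median −0.42, against 0.09 over all 17959 genes tested), and in 8 every mutant was below every control, against 5.77% of all genes. Mael, a piRNA pathway protein of germ granules, read 88.3, 82.6 and 96.6 TPM in controls and 61.2, 61.6 and 70.0 TPM in mutants. Mov10l1, the helicase that feeds piRNA precursors into the pathway, read 42.7, 30.8 and 46.3 TPM in controls and 23.6, 23.7 and 26.4 TPM in mutants. Gpat2 and Rnf17 had differences of −0.53 and −0.36. No gene of this list passed the threshold of 0.05 after adjustment over all genes tested (limma, lowest adjusted p = 0.29), and 10 had an unadjusted p under 0.05, against 16.1% of all genes.

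Fkbp6 as a percentage of the summed TPM of these 18 genes was 19.7, 28.6 and 22.6 in controls and 34.5, 31.8 and 28.8 in mutants. All mutants lay above all controls, though mutant 3 was close to control 2. Against the summed leptotene and zygotene markers it was 18.2, 25.0 and 21.3 in controls and 31.96, 32.6 and 26.5 in mutants, again without overlap. Both ratios were added after the data had been seen, and no test was made of them. They follow from near-equal Fkbp6 means and from lower sums in mutants, and add nothing to those values. The means of the sums were 428 and 309 TPM for the PIWI genes and 467 and 324 TPM for the markers (controls and mutants). Of 13 genes of the synaptonemal complex and cohesin that were tested, 12 had a negative difference (median −0.42) and in 5 every mutant was below every control, against 5.77% of all genes. Smc1b, a meiotic cohesin, read 41.9, 37.8 and 39.3 TPM in controls and 24.7, 20.7 and 27.3 TPM in mutants. Sycp2, an axis protein, stood at 80.9 ± 9.04 TPM and 51.8 ± 6.74 TPM (SD, n = 3 each). Hormad1 and Stag3 had differences of −0.78 and −0.38. None was called by limma (lowest adjusted p = 0.29), and 9 had an unadjusted p under 0.05, against 16.1% of all genes. In this list, 6 of the 14 genes written are also among the leptotene and zygotene markers.

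Ahsa1 (chromosome 12, 87266479 to 87273998, plus strand), the activator of the HSP90 ATPase, read 25.1, 21.2 and 20.1 TPM in controls and 20.5, 24.7 and 22.1 TPM in mutants. The means were 22.1 ± 2.63 TPM and 22.5 ± 2.13 TPM (SD, n = 3 each), and the sign of the difference (0.02, SE 0.12) changed in 5 of 14 other settings. A noncoding gene, Gm49207, carries 267 nt that are 99.6% identical to Ahsa1 and read 2.47 TPM on average.

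Ptges3 (chromosome 10, 128058954 to 128077272, plus strand), which encodes p23, read 49.1, 37.5 and 39.9 TPM in controls and 36.2, 40.0 and 35.9 TPM in mutants. Control 1 was the highest library, and the groups overlapped (42.2 ± 6.11 TPM and 37.4 ± 2.32 TPM, SD, n = 3 each; log2 difference −0.16, SE 0.12). Without control 1 the difference was −0.05. Its level is uncertain because of a processed pseudogene, Ptges3-ps (chromosome 6, 480 nt), of which 285 nt are identical to the main Ptges3 message. The pseudogene was listed at 161, 126 and 131 TPM in controls and 117, 127 and 114 TPM in mutants, above its parent in every library. Its ratio to Ptges3 ran only from 3.18 to 3.36 over the 6 libraries. Reads of the parent and of the copy cannot be told apart from these tables. For the other members no copy of comparable level was found (at least 95% identity over 200 nt or more). The highest was Gm12346, a transcribed pseudogene of Hsp90aa1 with 99.4% identity over 2208 nt, at 6.49 TPM against 511 TPM for Hsp90aa1.

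Cdc37 (chromosome 9, 21133222 to 21149982), the kinase co-chaperone, read 30.1, 34.5 and 34.1 TPM in controls and 35.3, 42.7 and 37.8 TPM in mutants. Every mutant lay above every control, by a margin of under 1 TPM between control 2 and mutant 1 (32.9 ± 2.45 TPM and 38.6 ± 3.77 TPM, SD, n = 3 each; log2 difference 0.22, SE 0.11). Of its 3 isoforms, only the one annotated as a retained intron, Cdc37-203 (792 nt), was without overlap, at 14.9, 14.2 and 13.8 TPM in controls and 15.5, 20.97 and 18.1 TPM in mutants. The complete coding isoform Cdc37-201 (7851 nt) held 18.9% ± 0.40 of the gene's TPM in controls and 18.2% ± 1.73 in mutants (SD, n = 3 each). Weighted by length, which approximates its share of reads, it held 65.8% ± 0.56 in controls and 64.8% ± 2.59 in mutants (SD, n = 3 each). Its own level was 6.23 ± 0.55 TPM and 6.997 ± 0.81 TPM (SD, n = 3 each), and its groups overlapped.

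**Figure D3:**
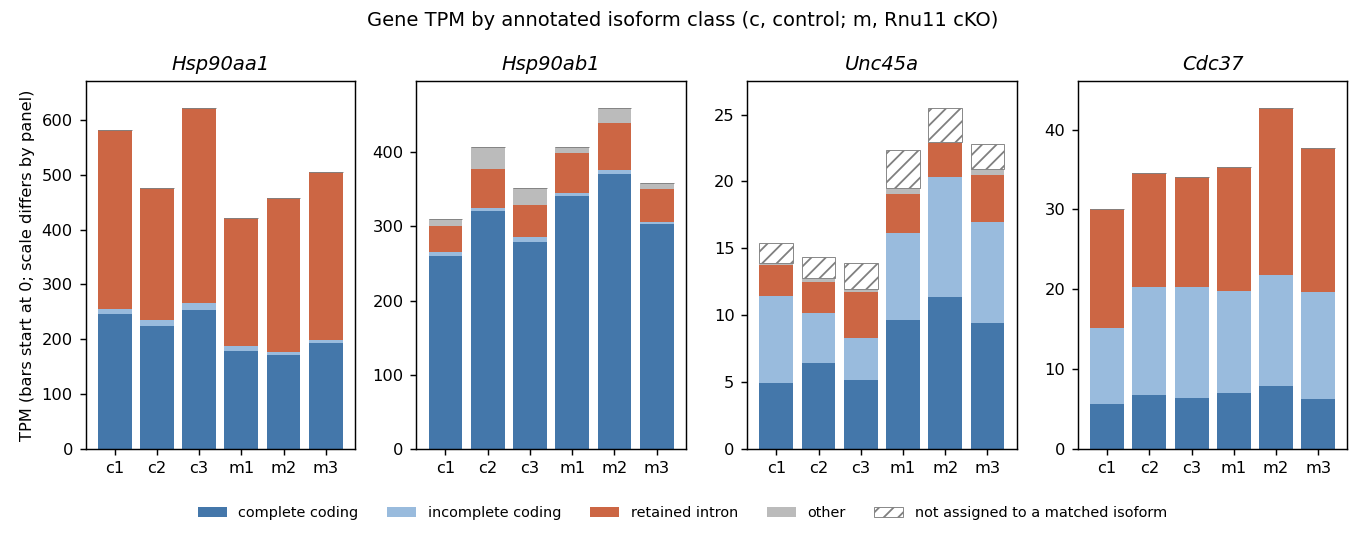
TPM of Hsp90aa1, Hsp90ab1, Unc45a and Cdc37 in each library, stacked by annotated isoform class (bars start at 0, and the scale differs by panel). Complete coding isoforms hold most of the TPM of Hsp90ab1 but under 50% of that of Hsp90aa1 and about 18% of that of Cdc37. These shares are not weighted by isoform length. Hatched parts of Unc45a belong to no matched isoform.

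Over the 10 members, 6 differences were positive and 4 negative, and the median was 0.11 against 0.09 over all genes tested. In 2 members, Unc45a and Cdc37, every mutant lay above every control, which was so for 14.5% of all genes. In 0 members did every mutant lie below every control, against 5.77% of all genes. None was called by limma over all 17959 genes (0 of 10, background 0.0278%; adjusted p 0.22 for Unc45a to 0.93 for Ahsa1), and 2 had an unadjusted p under 0.05, Unc45a and Fkbp5, against 16.1% of all genes. Since the members were chosen with this contrast known, nothing is read from these counts. Rnu11 itself, with a log2 difference of −1.21 (SE 0.26), was not called either (limma, adjusted p = 0.29). The absence of a call here and below therefore does not show the absence of a difference.

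The median of all genes depends on the scaling. Rescaling to a fixed protein-coding sum moved that median by −0.12, to −0.03, and moved Unc45a to 0.52, Cdc37 to 0.09 and Hsp90aa1 to −0.41. Under that scaling and under median-ratio scaling only 1 member had every mutant above every control, and in 1 every mutant was below every control. The shares of all genes under these scalings are not given here, so nothing is read from these counts. With the protein-coding sum fixed, the signs of the other members were mixed. Hsp90ab1, Fkbp4 and Fkbp5 kept positive differences of 0.06, 0.09 and 0.21, and Ahsa1 changed sign to −0.11.

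**Figure D4:**
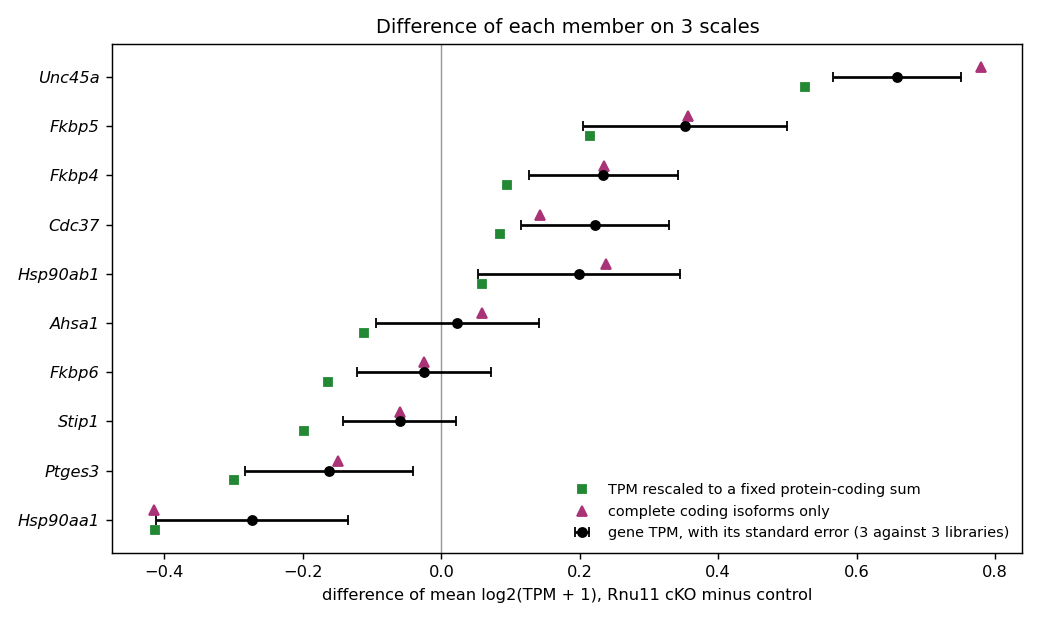
Difference of mean log2(TPM + 1), mutant minus control, for each member from gene TPM (black, bars are standard errors, 3 against 3 libraries), from TPM rescaled to a fixed protein-coding sum (green) and from complete coding isoforms (purple). Unc45a lies at 0.52 to 0.78 and Hsp90aa1 at −0.42 to −0.27 on these scales, while Ahsa1 lies on both sides of 0.

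The members had 61 listed isoforms, of which 4 were at 0 in all libraries and 40 had a mean of at least 1 TPM. Every mutant was above every control in 4 of these 40 (Unc45a-201, Fkbp5-204, Fkbp5-209 and Cdc37-203), against 11.6% of all isoforms. Every mutant was below every control in 2, Hsp90aa1-201 and Hsp90aa1-202, against 5.17% of all isoforms. No member isoform was called (0 of 40, background 0.0136%; limma, adjusted p 0.31 to 0.98), and 8 had an unadjusted p under 0.05, against 11.2% of all isoforms. Of 26 shares of an isoform in its gene, 0 were called (background 0.0112%; limma, adjusted p 0.86 to 0.99) and 0 had an unadjusted p under 0.05, against 5.78% of all shares. In 2 shares, Fkbp5-204 and Ptges3-202, every mutant was above every control, and in 0 below, against 5.73% and 6.04% of all shares.

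The order of levels between members was tested within libraries, over both groups together. By mean gene TPM over the 6 libraries the order was Hsp90aa1 (511), Hsp90ab1 (382), Fkbp4 (107), Fkbp6 (98.5), Stip1 (53.8), Ptges3 (39.8), Fkbp5 (39.6), Cdc37 (35.7), Ahsa1 (22.3) and Unc45a (19.0). In 4 of the 9 neighbouring pairs all 6 libraries had the same order. These were Hsp90ab1 over Fkbp4, Fkbp6 over Stip1, Stip1 over Ptges3 and Cdc37 over Ahsa1. Each reached an exact two-sided sign-flip permutation p of 0.0312, the smallest that 6 libraries allow, and an adjusted p of 0.0703 over the 9 pairs, so 0 of 9 passed. The remaining neighbours did not keep 1 order in all libraries and did not pass either. The place of Ptges3 is uncertain, because its reads cannot be told apart from those of Ptges3-ps (129 TPM on average). Hsp90aa1 over Hsp90ab1 held in 5 of 6 libraries, with a mean log2 difference of 0.41 ± 0.39 (SD, n = 6). Ahsa1 stood above Unc45a in all 3 controls and below it in all 3 mutants, so their places depend on the group.

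Over complete coding isoforms the order changed at its ends. Hsp90ab1 (313 TPM) stood above Hsp90aa1 (211 TPM) in all 6 libraries, with a mean log2 difference of 0.57 ± 0.41 (SD, n = 6), and Cdc37 (6.62 TPM) took the last place behind Unc45a (7.82 TPM). That last pair again depends on the group, with Cdc37 above Unc45a in all 3 controls and below it in all 3 mutants. On this scale 6 of 9 neighbouring pairs passed (exact sign-flip permutation test, adjusted p = 0.0469 each). Their unadjusted p was again the smallest possible, 0.0312. The adjusted p was lower than with gene TPM only because 6 pairs rather than 4 reached that value. Fkbp6 over Stip1 had the same levels on both scales and passed on this one only. Fkbp4 and Fkbp6, Ptges3 and Fkbp5, and Unc45a and Cdc37 did not. Stip1 over Ptges3 was among those that passed, and the place of Ptges3 is uncertain here too.

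The genes whose profile over the 6 libraries was most like that of Unc45a, of 9335 protein-coding genes of at least 5 TPM compared, were Mt3, Plac9b and Ccdc160. Their centred log2(TPM + 1) values differed from those of Unc45a by a root mean square of 0.081, 0.085 and 0.091, against a median of 0.31 over all genes compared. Being the smallest of all distances, they lie below the median by selection, so the median serves only as a scale. Mt3, a metallothionein, read 14.7 to 16.5 TPM in controls and 22.4 to 25.2 TPM in mutants. For Hsp90aa1 the nearest were Cfap36 (0.032), Asz1 (0.040) and Dmap1 (0.050), against a median of 0.29. Asz1, one of the PIWI pathway genes, read 18.5, 14.7 and 18.2 TPM in controls and 13.1, 14.1 and 15.7 TPM in mutants, with control 2 again low among controls.

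Among 27 tested genes for other HSP90 paralogs and co-chaperones, 21 had a positive and 6 a negative difference (median 0.13). After rescaling to a fixed protein-coding sum this became 13 positive and 14 negative (median −0.01), so no direction holds for the list. Sugt1, a co-chaperone of immune receptors and kinetochores, read 22.4, 22.6 and 18.4 TPM in controls and 24.1, 31.95 and 25.5 TPM in mutants. Nudcd2 had a difference of 0.35. Fnip1, which slows the HSP90 ATPase, read 16.7, 12.9 and 15.6 TPM in controls and 11.9, 12.3 and 11.6 TPM in mutants, the single gene of the list with every mutant below every control. Of 13 R2TP and dynein arm assembly genes, 5 were positive and 8 negative (median −0.14, or −0.25 with 2 positive after that rescaling), with Pih1d2 at −0.47, Dnaaf2 at −0.40, Tti2 at −0.26 and Spag1 at 0.23.

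The HSP70 list split evenly, with 15 positive and 13 negative differences (median 0.04, or −0.10 with 10 positive after protein-coding rescaling). Hspa1a, an inducible HSP70, read 3.01, 6.95 and 3.70 TPM in controls and 8.96, 8.31 and 5.97 TPM in mutants, with control 2 above mutant 3. The nucleotide exchange factors Bag1, Bag2 and Bag3 had differences of 0.25, 0.38 and 0.31. Of 11 heat shock factor and small heat shock genes, 7 were positive and 4 negative (median 0.14, or −0.00 after that rescaling). Hspb1, the small heat shock protein HSP27, read 38.6, 36.4 and 39.7 TPM in controls and 57.1, 72.6 and 50.0 TPM in mutants, with no overlap. Hspb8 and Hspe1 had differences of 0.48 and 0.30, and Hsf5, a germ cell factor, one of −0.82. Of 9 other FK506-binding proteins 7 were positive (median 0.16, or 0.03 after that rescaling), led by Fkbp7 at 0.47, Fkbp9 at 0.34, Fkbp10 at 0.33 and Fkbp14 at 0.33, all with overlapping groups.

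Client receptors and their response genes had mostly positive differences. All 4 steroid receptor genes tested were positive (median 0.25, or 0.14 after protein-coding rescaling). Nr3c1, the glucocorticoid receptor, read 15.6, 18.8 and 16.1 TPM in controls and 20.2, 19.9 and 18.9 TPM in mutants, with every mutant above every control. Esr1 and Nr3c2 had differences of 0.57 and 0.19. Of 13 glucocorticoid and androgen response genes, 12 were positive and 1 negative (median 0.35, or 0.22 after rescaling, with 11 positive), and in 6 every mutant was above every control, against 14.5% of all genes. Klf9, a glucocorticoid-induced factor, read 14.2, 13.3 and 12.03 TPM in controls and 18.0, 18.4 and 15.9 TPM in mutants. Ddit4 and Dusp1 had differences of 0.46 and 0.35. One gene of this list, Rhox5, is also a Sertoli marker, and another, Zbtb16, a spermatogonial one.

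Of 17 kinase clients 13 were positive and 4 negative (median 0.14, or 0.00 after rescaling, with 9 positive). Araf, Ripk1 and Akt2 had differences of 0.24, 0.31 and 0.32. Braf went the other way, at 28.8, 32.7 and 31.2 TPM in controls and 25.4, 27.1 and 25.9 TPM in mutants, with every mutant below every control. No gene of any of these lists was called by limma over all genes (lowest adjusted p = 0.29). An unadjusted p under 0.05 was reached by 5 of the 27 co-chaperone, 3 of the 13 R2TP, 4 of the 28 HSP70, 4 of the 11 heat shock, 0 of the 9 FK506-binding, 2 of the 4 receptor, 7 of the 13 response and 2 of the 17 kinase genes, against 16.1% of all genes. The lists were written with earlier results of these libraries known, and their counts stand beside 66.4% of all tested genes with a positive difference.

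**Figure D5:**
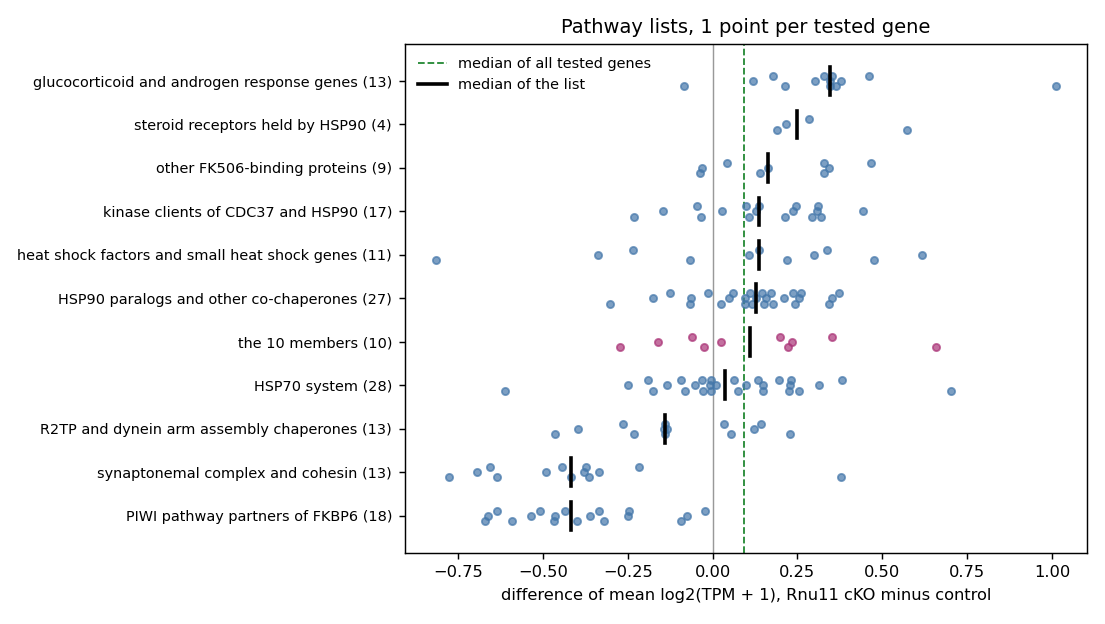
Difference of mean log2(TPM + 1), mutant minus control, with 1 point per tested gene in each pathway list and in the members (number of genes in brackets), black bars at list medians and the dashed line at the median of all tested genes. The medians run from −0.42 for PIWI pathway and synaptonemal complex genes to 0.35 for hormone response genes, and the members lie at 0.11.

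Markers of other cell types moved in both directions beside these values. Differentiating spermatogonia markers summed to 377 ± 13.9 TPM over controls and 328 ± 31.1 TPM over mutants, and undifferentiated ones to 67.9 ± 7.05 TPM and 70.9 ± 2.16 TPM (SD, n = 3 each). Leydig markers were 126, 235 and 137 TPM in controls and 264, 392 and 246 TPM in mutants, and macrophage markers 36.3, 48.4 and 30.3 TPM and 55.3, 62.1 and 42.9 TPM. Control 2 was the highest control for both. Endothelial and peritubular myoid markers overlapped between the groups. No marker of any list was at 0 in all libraries, and all members have to be read as sums over these cells.

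The authors' deposited table gives its own log2 fold changes for the members, headed confident and single run. The confident ones are given here, and the single run ones differ somewhat from them. In the authors' deposited table these were 0.67 for Unc45a, 0.28 for Fkbp5, 0.22 for Cdc37, 0.19 for Fkbp4, 0.16 for Hsp90ab1, 0.10 for Ahsa1, −0.07 for Stip1, −0.09 for Fkbp6, −0.14 for Ptges3 and −0.28 for Hsp90aa1. Only Unc45a exceeded 0.5 in size in the authors' deposited table, 1 of 10 members, against 11.6% of the genes tested here.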

How the data were processed

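The labels' protocols describe rRNA-depleted, stranded total RNA libraries, and the submitters' processing notes name HISAT2 and GRCm38. No source used here names the quantifier or its annotation release. The authors deposited TPM per gene and isoform for each library, and tables with log2 fold changes and group averages. No counts were used. The series' design text speaks of 3 animals per group, and each library is treated as an animal of its own.

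Genes averaging 1 TPM or more were fitted with limma 3.58.1 in R 4.3.3 on log2(TPM + 1), with a variance trend, two-sided, Benjamini-Hochberg adjusted over all genes, threshold 0.05. Isoforms were fitted likewise. Isoform shares were fitted as log2 ratios to the other isoforms with 0.1 added to both, for genes of at least 5 TPM and shares of 5% to 95%. The scripts were tested on simulated data. Neighbouring levels were compared with an exact sign-flip permutation test. Symbols were matched to GENCODE M21 (53388 of 55353), as were isoforms (141429 of 142647). A complete coding isoform is annotated protein-coding with no incomplete end. Near-identical copies were searched with blastn 2.17.0 in transcripts of other genes. Other steps used Python 3.11.15 and pandas 2.3.3.

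Members and lists were chosen with earlier results of these data known. Named are all members, their isoforms of at least 10% of the gene, in each list the 4 genes or fewer with the smallest p-values, Rnu11, and 3 genes each most like the most positive and most negative member. Hsp90aa1-202, Fkbp5-204, Fkbp5-209, Clu beyond its list, and near-identical or overlapping genes were named after their values were seen. Some genes of the lists are not reported here by name. Alternatives were another pseudocount, other filters, 2 scalings, no trend, the replicate number as a block, omission of each library and, added after seeing the data, complete coding isoforms only.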

Additional observations from a re-analysis of the deposited data

How the results depend on the processing

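No member gene, isoform or isoform share was called under any setting run (0 each, also with the replicate block). The replicate block left every member's difference as it was. After each gene's group mean was subtracted, same-numbered libraries correlated at −0.069, 0.035 and 0.077. Differently numbered ones ran from −0.16 to 0.12. With 3 libraries per group, these correlations cannot settle whether the numbers pair animals. Members with every mutant above every control numbered 1 with median-ratio scaling, protein-coding scaling and coding isoforms only, against 2. The range was 2 to 5 with 1 library left out, 5 without control 2 and 4 without mutant 3. Members with every mutant below every control numbered 1 under the same 3 settings, against 0, and 0 to 2 with 1 library left out (2 without control 2). Groups separate more easily with 1 library fewer. The shares of all genes under these settings are not given here, so nothing is read from these counts. Of the 9 neighbouring pairs, 6 passed with coding isoforms only and 0 under the other settings. With 5 libraries the test cannot pass. With coding isoforms the adjusted p passed because more pairs reached the smallest possible p than with gene TPM. The cause of the other changes was not tested. The Unc45a adjusted p ran from 0.065 (coding isoforms only) to 0.49 and that of Hsp90aa1 from 0.14 to 0.67 (limma). Over all genes 5 were called, 0 with no filter or with the replicate block, 8 with a pseudocount of 0.1, and 3 under either scaling, without trend or with a filter of 5 TPM. Leaving out 1 library gave 4 to 9, the latter without control 3. TPM gives no depth, so no detection limit can be stated for the lowest isoforms.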
